A study of Mus musculus with 12 samples.

Results

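Homeobox genes encode transcription factors that bind DNA through a homeodomain, and the families read here were those of Hox, Alx, Dlx, Msx, Tlx, Evx, Irx, Emx, Otx and Gbx. The members were chosen by symbol alone, as the rows whose gene name is 1 of these family names followed by a number (for Hox, by a cluster letter and a number). They were 68 of 23598 rows of the deposited expression values. The pattern matched 69 rows, and for Irx6, which stood in 2 rows, the row of higher mean was kept. Of the 68 genes, 39 were Hox genes.

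The tissue was mouse cochlea at postnatal day 7, taken from its apical and middle turns, and 6 or more cochleae went into each RNA pool. The 12 samples formed 4 groups of 3, labelled b-catenin-OE and Notch1-KO (the 2 changes combined, written below as the double group), b-catenin-OE, Notch1-KO and Control. β-catenin carries the Wnt signal to the nucleus and Notch1 is a receptor through which neighbouring cells signal to each other, and the series' design text concerns hair cells, the sensory cells of hearing, and the division of the supporting cells around them. The labels give no Cre driver, allele, induction scheme or strain for any group, and leave unsaid whether the samples within a group are separate pools, so the p-values cover the spread seen among these samples, part of which may be technical. The unit is FPKM (sequenced fragments divided by transcript length and by the library's mapped total), a level per length that can be set side by side between genes. In such bulk samples, fewer cells of a type and less RNA per cell cannot be told apart.

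Hox genes lie in 4 clusters and are used in an ordered way along the body axis, the low numbers in the hindbrain and the high numbers towards the tail. The head in front of the hindbrain is patterned mostly by the dispersed families, among them Otx, Emx, Dlx and Irx. The inner ear grows from a placode beside the hindbrain, where Dlx, Otx, Gbx and Irx genes are used to set up its regions.

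A few facts of the series bear on all values below. Notch1 had 8.62, 5.70 and 5.77 FPKM in the double group, 37.6, 15.7 and 16.7 FPKM in b-catenin-OE, 9.16, 7.63 and 7.56 FPKM in Notch1-KO and 24.3, 14.7 and 16.6 FPKM in Control, so every library with the Notch1-KO label lay below every library without it. Ctnnb1, the gene of β-catenin, had 372 to 482 FPKM over the 9 libraries outside Control and 369 to 435 FPKM in Control, with no value per exon in the table. All 10 hair cell marker genes and all 10 supporting cell marker genes of the lists used here passed the filter for testing, so the cells that define the labelled tissue were represented. Against Control, 7 of 10 supporting cell markers fell in the double group and 0 of 10 hair cell markers passed. Of all rows tested 6.64% fell. The libraries numbered 1 stood apart from those numbered 2 and 3: over 5889 genes the log2 differences had a robust SD of 0.0756 to 0.133 for sample 2 against sample 3 of a group, and of 0.293 to 0.446 for either of them against sample 1. Differences within samples 1 and within samples 2 and 3 are therefore given beside the main results.

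Promoters are shown for Evx1 and Msx2, which are 2 of the 4 genes that met the switched-on rule below. They are RefSeq sequences of GRCm38.p6, 250 bases before to 50 after the start of the gene. Capitals mark a match, on either strand, to 1 of 3 motifs: CTTTGAT (TCF/LEF, the DNA-binding partners of β-catenin), TGGGAA (RBPJ, the DNA-binding partner of Notch) and TTTATG (Cdx). The Evx1 promoter is chr6:52313248-52313547 on the plus strand, and the Msx2 promoter is chr13:53472731-53473030 on the minus strand.
Evx1: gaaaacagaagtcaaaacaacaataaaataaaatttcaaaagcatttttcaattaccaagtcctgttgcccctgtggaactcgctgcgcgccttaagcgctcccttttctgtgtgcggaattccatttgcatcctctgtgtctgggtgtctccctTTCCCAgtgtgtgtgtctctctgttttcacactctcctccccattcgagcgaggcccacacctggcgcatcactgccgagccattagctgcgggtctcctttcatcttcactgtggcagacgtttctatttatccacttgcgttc
Msx2: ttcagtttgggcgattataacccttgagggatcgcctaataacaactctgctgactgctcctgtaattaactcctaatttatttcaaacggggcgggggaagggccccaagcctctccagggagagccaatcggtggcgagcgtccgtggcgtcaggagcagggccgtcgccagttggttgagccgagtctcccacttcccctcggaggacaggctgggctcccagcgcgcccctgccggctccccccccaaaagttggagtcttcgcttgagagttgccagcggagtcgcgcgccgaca
The Evx1 window held 1 RBPJ match, on the minus strand at position -95 from the start, and no match to the other motifs. The Msx2 window held none of the 3. Of 27025 promoters of the same length, 25.5% held an RBPJ match, 3.72% a TCF/LEF match and 12.1% a Cdx match. Promoters were matched for 38 of the 68 genes, of which 11 held an RBPJ match, 1 a TCF/LEF match and 6 a Cdx match. A match is a description of the letters, not a site.

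Most homeobox genes were silent in all 4 groups. Of the 68, 40 stayed below 0.1 FPKM in all 12 samples, where 26% of all rows did so. Another 16 reached 0.1 FPKM somewhere without being present in any group (at least 1 FPKM in all 3 samples), and 12 were present in at least 1 group. Present were 11 genes in the double group, 8 in b-catenin-OE, 8 in Notch1-KO and 9 in Control, against 53% of all rows in Control. The 7 genes present in all 4 groups were Irx1, Irx2, Irx3, Irx5, Emx2, Dlx5 and Otx2. Evx1 and Irx6 were among the genes present in the double group and not in Control, and Otx1 was present in Control and not in the double group.

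**Figure D1:**
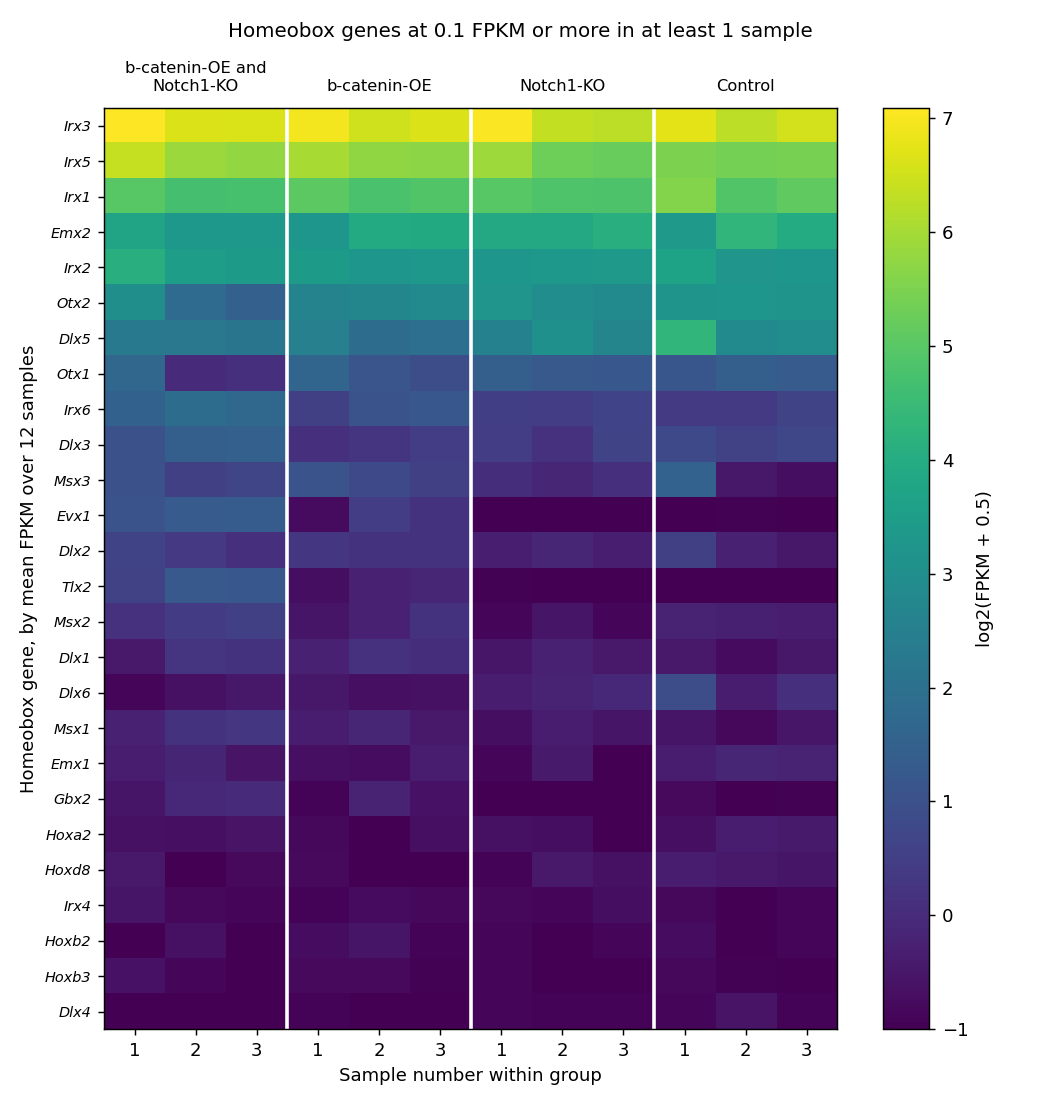
Level of 26 of the 28 homeobox genes that reached 0.1 FPKM in at least 1 of 12 samples, as log2(FPKM + 0.5), with genes down the page by mean level and samples across by group. Irx3, Irx5 and Irx1 are bright in every column, while Evx1 and Tlx2 are lighter in the double group than in Notch1-KO and Control.

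The Hox clusters were almost without RNA. Of 39 Hox genes, 35 were silent, 19 of them listed at 0 in all 12 samples, and an exact 0 in such a table can also be a failed estimate. The highest value of any Hox gene in any sample was 0.287 FPKM, for Hoxd8 in Control sample 1. The 4 Hox genes that reached 0.1 FPKM were Hoxa2, Hoxb2, Hoxb3 and Hoxd8. Hoxa2, which in the embryo patterns the hindbrain and the second pharyngeal arch, had 0.138, 0.133 and 0.168 FPKM in the double group, 0.0604, 0 and 0.132 FPKM in b-catenin-OE, 0.150, 0.121 and 0 FPKM in Notch1-KO and 0.131, 0.284 and 0.243 FPKM in Control. Every double sample of Hoxa2 lay above every b-catenin-OE sample, and both groups overlapped Control. Hoxd8 had 0.228, 0 and 0.0720 FPKM in the double group, 0.0722, 0 and 0 FPKM in b-catenin-OE, 0.0272, 0.226 and 0.149 FPKM in Notch1-KO and 0.287, 0.227 and 0.182 FPKM in Control. Its b-catenin-OE samples lay below all Control samples, while the double and Notch1-KO samples overlapped Control. None of the Hox genes passed the filter for testing.

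The traces differed by paralogue number. Of 12 Hox genes numbered 1 to 4, 10 had a value above 0 in at least 1 sample, as had 10 of 15 numbered 5 to 9 and 0 of 12 numbered 10 to 13. Summed over the 39 genes, the level was 0.635, 0.545 and 0.467 FPKM in the double group, 0.353, 0.261 and 0.175 FPKM in b-catenin-OE, 0.387, 0.417 and 0.277 FPKM in Notch1-KO and 0.809, 0.582 and 0.478 FPKM in Control. The double group overlapped Control, and each b-catenin-OE and Notch1-KO sum lay below every Control sum. These sums rest on few fragments and were not tested.

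The genes that help or hold Hox clusters were read beside them. Among 8 tested cofactors that bind DNA with Hox proteins, 1 rose and 1 fell in the double group against Control. Of all rows tested 12.5% were called there. Meis2 had 1.93, 3.55 and 3.27 FPKM in the double group and 0.903, 1.75 and 1.41 FPKM in Control (log2 difference 0.87 ± 0.25, limma adjusted p = 0.0438). Meis1 had 2.63, 2.03 and 2.44 FPKM in the double group and 3.62, 6.43 and 5.98 FPKM in Control (-0.996 ± 0.206, limma adjusted p = 0.00863). The Meis2 samples of the groups did not overlap, nor did those of Meis1, and the 2 related genes moved in opposite directions.

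Among the Polycomb genes, whose complexes keep Hox clusters silent in many tissues, Jarid2 was 1 of 10 tested members of repressive complex 2 to rise in the double group (0.49 ± 0.14, limma adjusted p = 0.0455). Cbx2 (0.71 ± 0.17, limma adjusted p = 0.0165) and Phc2 (0.36 ± 0.10, limma adjusted p = 0.0373) were 2 of 17 tested members of repressive complex 1 that rose. In the double group none of these genes fell, and 0 of 7 tested Trithorax and H3K27 demethylase genes passed, with 2 at an unadjusted limma p below 0.05. Across all 14581 rows tested 12.5% were called in this comparison, and 3837 had an unadjusted limma p below 0.05. In b-catenin-OE and in Notch1-KO against Control, 0 genes of these 4 lists passed by limma, with 5 and 1 at an unadjusted p below 0.05. Over all rows tested, 2035 and 1206 had such an unadjusted p.

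Of the 3 caudal-type genes, which in the embryo act ahead of the posterior Hox genes, Cdx1 alone was tested. Cdx1, known as a direct Wnt target in the embryo, had 2.83, 3.61 and 3.63 FPKM in the double group, 0.607, 3.58 and 3.04 FPKM in b-catenin-OE, 0.111, 0.0307 and 0.0348 FPKM in Notch1-KO and 0.0598, 0.0361 and 0.0741 FPKM in Control. All 6 libraries with b-catenin-OE in their label lay above all 6 without it. The rise against Control passed the test in the double group (2.79 ± 0.38, limma adjusted p = 0.000681) and in b-catenin-OE (2.18 ± 0.38, limma adjusted p = 0.0123). Cdx1 passed the filter for testing only through the libraries with b-catenin-OE in their label. These p-values therefore draw on the values that admitted it. Cdx2 was listed at 0 in 11 of 12 samples and Cdx4 in all 12.

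Outside the Hox clusters, 4 homeobox genes met the switched-on rule, all in the double group, and Evx1, Tlx2 and Msx2 were among them. The rule asked for less than 0.5 FPKM in all 3 Control samples and at least 0.5 FPKM in all 3 samples of the group. Over all genes of the series 1.5% of the 8997 rows that were below 0.5 FPKM in Control met it in the double group. In b-catenin-OE (0.567% of rows) and in Notch1-KO (0.4% of rows) 0 homeobox genes met it. Asked of 2 of 3 samples, it was met by 6 genes in the double group, which added Dlx1 and Msx1, and by 3 genes in b-catenin-OE, Dlx1 and Evx1 among them. No homeobox gene was switched off in any group. Of the 13451 rows at 0.5 FPKM or more in all Control samples, 0.61% were switched off in the double group, 0.364% in b-catenin-OE and 0.216% in Notch1-KO. Without Control sample 2 the count was 1 in each group, and the gene was Dlx6.

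Evx1, a homologue of the fly gene even-skipped that specifies a class of spinal interneurons, lies beside Hoxa13 at the end of the HoxA cluster. Its listed locus (chromosome 6, 52308145 to 52318378, mm10) also holds an antisense transcript. Evx1 had 1.61, 2.0 and 2.03 FPKM in the double group, 0.0876, 0.887 and 0.645 FPKM in b-catenin-OE, 0 in all 3 Notch1-KO samples and 0, 0.0206 and 0 FPKM in Control. Hoxa13 was listed at 0 in all 12 samples, and Evx2, beside the HoxD cluster, likewise. Each double sample lay above each b-catenin-OE sample, and each of these above each Notch1-KO and Control sample. The log2 difference of the double group was 2.23 ± 0.26 against Control (limma adjusted p = 0.000257), 1.28 ± 0.26 against b-catenin-OE (limma adjusted p = 0.0285) and 2.25 ± 0.26 against Notch1-KO (limma adjusted p = 0.000307). Against Control it was 2.08 in samples 1 and 2.30 in samples 2 and 3. These are differences of log2(FPKM + 0.5), which understate the change of low genes. Evx1 passed the filter for testing only through libraries with b-catenin-OE in their label. Its p-values against Control and Notch1-KO therefore draw on the values that admitted it.

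For b-catenin-OE against Control the Evx1 difference was 0.95 ± 0.26 (limma adjusted p = 0.105), with 0.23 in samples 1 and 1.30 in samples 2 and 3, and without b-catenin-OE sample 1 it was 1.31 and passed (adjusted p = 0.000976). The call of the double group over b-catenin-OE ended without any 1 of the 3 double samples (1.37 without sample 1, 1.24 without samples 2 or 3), without b-catenin-OE sample 3 (1.40) and without Notch1-KO samples 2 or 3 (1.28 each). The authors' deposited table gives p = 0.06055 for both the double group and b-catenin-OE against Control. Where low values showed the spacing of whole fragments, the level of Evx1 corresponded to about 128 and 103 fragments in double samples 2 and 3 and to 47.3 and 41.8 fragments in b-catenin-OE samples 2 and 3, provided that no further scaling between libraries had been applied to FPKM. In Control samples 2 and 3, 3 fragments would have given 0.0622 and 0.0424 FPKM.

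The antisense transcript at Evx1, listed as 5730457N03Rik, followed the same order of groups as Evx1. It had 1.35, 3.06 and 3.0 FPKM in the double group, 0.0875, 1.18 and 1.06 FPKM in b-catenin-OE, and was listed at 0 in all Notch1-KO and Control samples. It rose in the double group against Control by 2.51 ± 0.37 (limma adjusted p = 0.00104). Like Evx1, it passed the filter for testing only through libraries with b-catenin-OE in their label. Against b-catenin-OE the difference of 1.30 ± 0.37 did not pass (limma adjusted p = 0.0913), where that of Evx1 did. Whether reads were counted by strand is not given in the sources used here, so reads of Evx1 and of its antisense partner cannot be told apart.

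Tlx2, a gene of neural crest derived neurons such as those of the gut (listed locus chromosome 6, 83057844 to 83071685), followed the same order at a lower level. It had 0.996, 1.89 and 1.81 FPKM in the double group, 0.113, 0.342 and 0.407 FPKM in b-catenin-OE, 0.0139, 0 and 0 FPKM in Notch1-KO, and was listed at 0 in all 3 Control samples. No group overlapped the next in this order, apart from Notch1-KO with Control. The log2 difference of the double group was 2.02 ± 0.21 against Control (limma adjusted p = 0.000129), 1.38 ± 0.21 against b-catenin-OE (limma adjusted p = 0.00714) and 2.0 ± 0.21 against Notch1-KO (limma adjusted p = 0.000175). Against Control it was 1.58 in samples 1 and 2.23 in samples 2 and 3. In b-catenin-OE against Control the Tlx2 difference was 0.63 ± 0.21 and did not pass (limma adjusted p = 0.192). Tlx2 passed the filter for testing only through the double samples. Its p-values for the double group therefore draw on the values that admitted it.

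The other Tlx genes did not move with Tlx2: Tlx1 was listed at 0 throughout and Tlx3 stayed at or below 0.0869 FPKM. The table's locus of Tlx2 also holds Dqx1, which had 0.513, 0.576 and 0.310 FPKM in the double group and 0.148, 0.316 and 0.255 FPKM in Control and did not pass (limma adjusted p = 0.289). Double samples 2 and 3 corresponded to about 58.1 and 43.8 fragments of Tlx2 under the same condition as for Evx1.

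Markers of neurons outside the cochlea were read beside Evx1 and Tlx2. The list of peripheral autonomic and sensory neurons summed to 0.547 to 1.08 FPKM in the double group, 1.23 to 2.66 FPKM in b-catenin-OE, 5.72 to 10.8 FPKM in Notch1-KO and 7.06 to 11.3 FPKM in Control. Of its 8 genes 4 were tested, and Chrna3, Chrnb4 and Prdm12 fell in the double group, so the list moved against Tlx2. Of all rows tested 6.64% fell there. The hindbrain list of 10 genes summed to 21.8 to 30.4 FPKM in the double group, 14.7 to 18.0 FPKM in b-catenin-OE, 7.59 to 8.28 FPKM in Notch1-KO and 10.96 to 11.4 FPKM in Control. Without Gad1 the other 9 genes summed to 1.89 to 2.77 FPKM in the double group, 4.13 to 8.44 FPKM in b-catenin-OE, 2.84 to 4.79 FPKM in Notch1-KO and 4.19 to 5.85 FPKM in Control, so the higher sum in the double group was that of Gad1. Of the 3 tested genes of the list Gad1 rose in the double group (19.9, 27.6 and 27.9 FPKM, against 5.5, 6.49 and 7.13 FPKM in Control). Gfap had 0.645, 0.951 and 0.621 FPKM in the double group and 0.992, 1.78 and 1.65 FPKM in Control and did not pass (-0.66 ± 0.20, limma adjusted p = 0.0589), nor did Slc17a6 (-0.63 ± 0.42, limma adjusted p = 0.391). Olig2 stayed at or below 0.124 FPKM in all samples, and Slc6a5 at or below 0.0184 FPKM.

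Msx2, a target of BMP signalling in the face and limbs (chromosome 13, 53466881 to 53472780), was switched on by the rule but was not at 0 in Control. It had 0.604, 0.853 and 0.940 FPKM in the double group, 0.187, 0.338 and 0.633 FPKM in b-catenin-OE, 0.0489, 0.192 and 0.0545 FPKM in Notch1-KO and 0.349, 0.311 and 0.291 FPKM in Control. The double samples lay above all Control samples and the Notch1-KO samples below them. Against Control the difference in the double group was 0.66 ± 0.21 and did not pass (limma adjusted p = 0.0595). At the same difference it passed without b-catenin-OE sample 1 (adjusted p = 0.0318) or sample 3 (adjusted p = 0.0444). Against Notch1-KO it was 1.12 ± 0.21 and passed (limma adjusted p = 0.00528). In Notch1-KO against Control it was -0.46 ± 0.21 (limma adjusted p = 0.599). Msx2 too passed the filter for testing only through libraries with b-catenin-OE in their label.

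Msx1, also a BMP target, had 0.331, 0.630 and 0.703 FPKM in the double group, 0.267, 0.414 and 0.24 FPKM in b-catenin-OE, 0.112, 0.273 and 0.186 FPKM in Notch1-KO and 0.193, 0.0643 and 0.198 FPKM in Control. The double and b-catenin-OE samples lay above all Control samples, but too few reached 0.5 FPKM for Msx1 to be tested. Its antisense transcript Msx1os rose in the double group by 0.73 ± 0.19 (limma adjusted p = 0.0253). Msx1os passed the filter for testing only through libraries with b-catenin-OE in their label. Msx3 had 1.5, 0.941 and 1.11 FPKM in the double group and 2.38, 0.212 and 0.109 FPKM in Control, so that Control sample 1 lay far above the other Control samples. Its difference in the double group was 0.63 ± 0.46 (limma adjusted p = 0.434), and without Control sample 1 it was 1.34 and passed (adjusted p = 0.00212). In b-catenin-OE the Msx3 difference from Control was of like size, 0.69 ± 0.46 (limma adjusted p = 0.600). Without Control sample 1 it was 1.40 there and passed too (limma adjusted p = 0.00439).

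**Figure D2:**
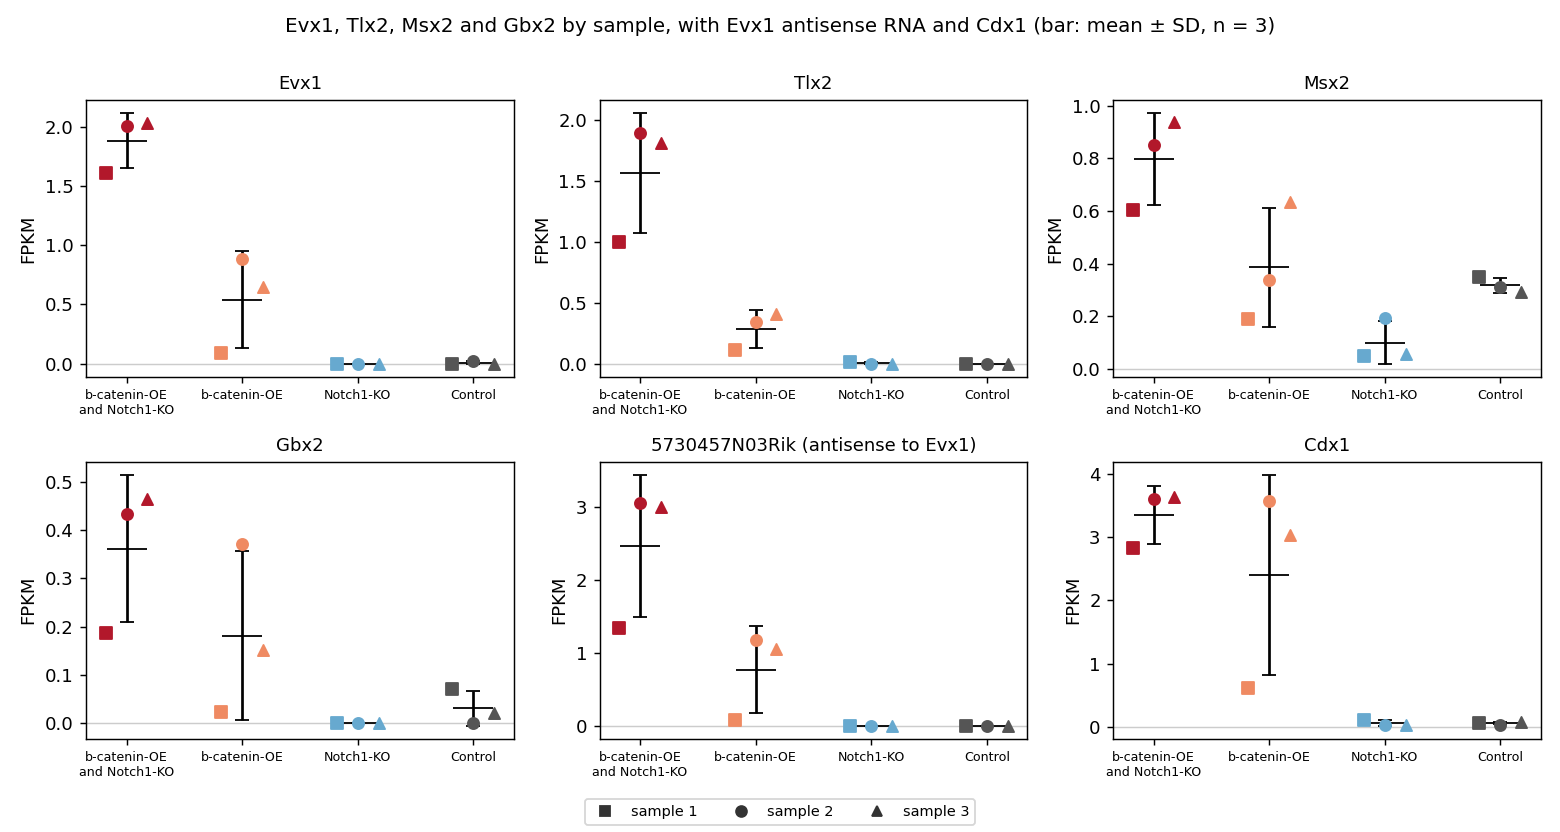
FPKM of Evx1, Tlx2, Msx2, Gbx2, the antisense RNA of Evx1 and Cdx1 in every sample, by group, with the mean and SD of 3 samples. Every double sample lies above every other sample in the panels of Evx1, Tlx2 and the antisense RNA, and within b-catenin-OE sample 1 lies below samples 2 and 3 in all 6 panels.

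Counted over all 17 homeobox genes that passed the filter, 6 were called in the double group against Control, 4 higher and 2 lower, where 12.5% of all 14581 rows tested were called, 5.88% higher and 6.64% lower. The median log2 difference of the 17 was 0.55, against -0.02 over all rows tested. Some of them, Evx1, Tlx2 and Msx2 included, passed the filter only through the libraries with b-catenin-OE in their label, so they had to differ, and neither the count nor the median is read as a result about the family. In b-catenin-OE against Control 0 of 17 passed by limma, where 2.24% of all rows were called. An unadjusted limma p below 0.05 was found for 7 of the 17 and for 2035 of all 14581 rows. In Notch1-KO against Control 0 passed by limma, where 0.857% of all rows were called. There 1 of the 17 had an unadjusted limma p below 0.05 (Msx2, lower), as had 1206 of all 14581 rows. In the double group 4 of the 17 were called against b-catenin-OE and 6 against Notch1-KO, all of them higher. Over all rows 2.72% were called against b-catenin-OE (1.22% higher) and 10.1% against Notch1-KO (4.91% higher). These comparisons share samples with each other.

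Over all 68 genes, 10 lay higher in every double sample than in every Control sample (10.9% of all rows) and 4 lay lower (12.1% of all rows). In b-catenin-OE 6 lay higher (5.55%) and 6 lower (6.18%). In Notch1-KO 0 lay higher (5.22%) and 2 lower (6.16%). Shares over the homeobox genes cannot fall evenly, since 21 of 68 were listed at 0 in all samples.

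**Figure D3:**
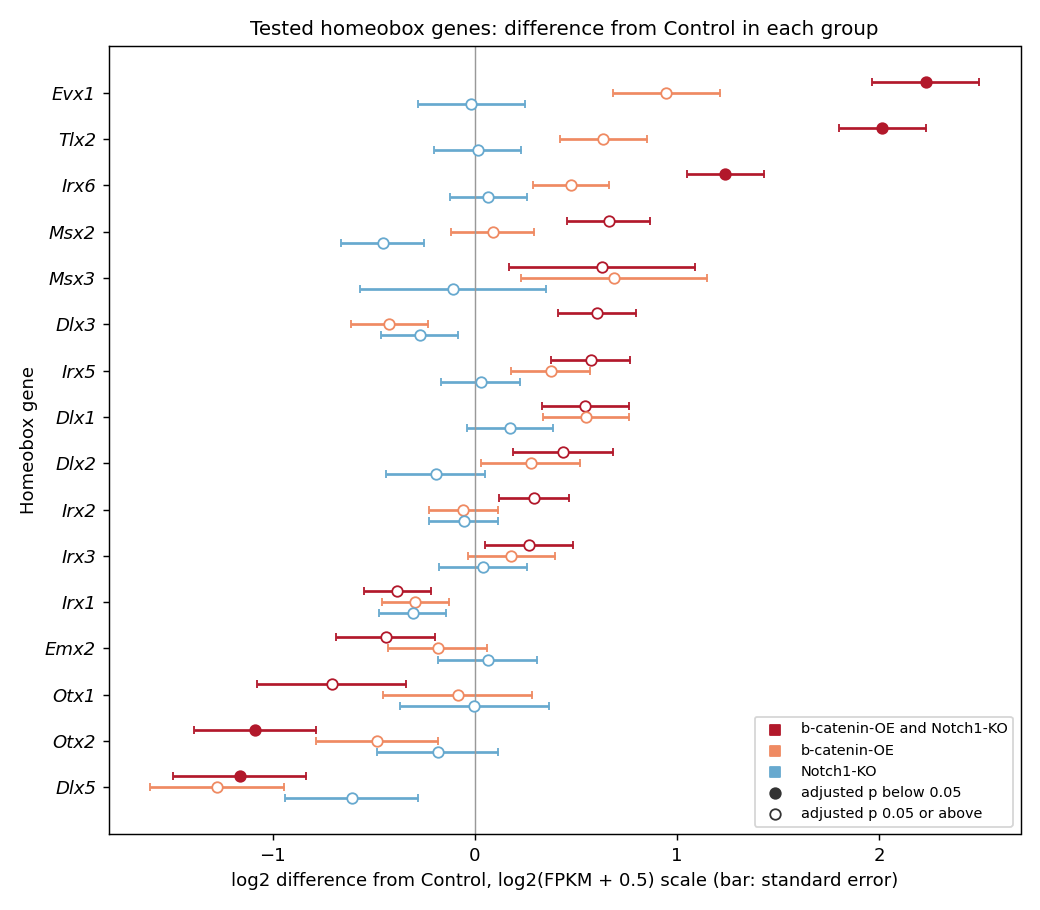
Log2 difference from Control of 16 of the 17 tested homeobox genes in each group, on the log2(FPKM + 0.5) scale, with standard errors; filled points have an adjusted p below 0.05. Filled points occur in the double group alone, at Evx1, Tlx2 and Irx6 on the right and at Otx2 and Dlx5 on the left.

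The Irx genes, the Iroquois factors used in patterning and in many adult epithelia, ranged from the highest levels of any homeobox gene (Irx3, Irx5 and Irx1) to near silence (Irx4). They form 2 clusters, Irx1, Irx2 and Irx4 on chromosome 13 and Irx3, Irx5 and Irx6 on chromosome 8. Irx3 averaged 111 ± 20.9 FPKM in the double group, 105 ± 17.2 FPKM in b-catenin-OE, 96.9 ± 30.5 FPKM in Notch1-KO and 92.2 ± 14.8 FPKM in Control (SD, n = 3 each), with overlap between all groups. Irx1 averaged 27.7 ± 3.19 FPKM in the double group, 29.5 ± 3.04 FPKM in b-catenin-OE, 29.2 ± 2.02 FPKM in Notch1-KO and 37.0 ± 9.85 FPKM in Control. Irx2 averaged 12.5 ± 3.22 FPKM in the double group, 9.52 ± 0.484 FPKM in b-catenin-OE, 9.53 ± 0.443 FPKM in Notch1-KO and 10.03 ± 1.97 FPKM in Control. Irx1, Irx2 and Irx3 passed in none of the 6 comparisons. Irx4 stayed at or below 0.191 FPKM in every sample, beside an Irx1 and an Irx2 at many times its level in the same cluster.

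Irx6, the last gene of its cluster (chromosome 8, 92653812 to 92680957), rose in the double group in the row that was kept. It had 2.34, 3.14 and 2.85 FPKM in the double group, 0.960, 1.62 and 1.79 FPKM in b-catenin-OE, 0.912, 0.873 and 1.05 FPKM in Notch1-KO and 0.806, 0.786 and 1.07 FPKM in Control. The double samples lay above all others, and b-catenin-OE overlapped Control through its sample 1. The log2 difference of the double group was 1.24 ± 0.19 against Control (limma adjusted p = 0.00139) and 1.17 ± 0.19 against Notch1-KO (limma adjusted p = 0.00246), and against b-catenin-OE it was 0.76 ± 0.19 and did not pass (limma adjusted p = 0.0588). Without Control sample 1 that difference passed (adjusted p = 0.0375), and without b-catenin-OE sample 1 the difference of b-catenin-OE from Control, 0.67, passed too (adjusted p = 0.0374). Against Control the double group differed by 1.12 in samples 1 and by 1.30 in samples 2 and 3. With samples 2 and 3 averaged into 1 value the call against Control ended (adjusted p = 0.0864).

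Irx5 had 83.0, 57.7 and 54.7 FPKM in the double group, 64.2, 52.7 and 51.2 FPKM in b-catenin-OE, 59.3, 38.6 and 36.5 FPKM in Notch1-KO and 44.4, 41.8 and 42.5 FPKM in Control. Each double and b-catenin-OE sample lay above each Control sample, but the difference in the double group, 0.57 ± 0.20, did not pass (limma adjusted p = 0.0811). It passed without Notch1-KO sample 1 (adjusted p = 0.0346). The non-coding RNAs at the Irx loci did pass in the double group against Control. Crnde, at the Irx5 locus, had 36.9, 31.5 and 33.2 FPKM in the double group and 23.2, 24.5 and 24.8 FPKM in Control (0.48 ± 0.10, limma adjusted p = 0.0109). Gm20554, at the Irx2 locus, had 5.96, 3.33 and 3.28 FPKM in the double group and 1.49, 1.53 and 1.59 FPKM in Control (1.16 ± 0.21, limma adjusted p = 0.00450). In b-catenin-OE Crnde had 31.9, 33.3 and 32.4 FPKM (0.42 ± 0.10 against Control, limma adjusted p = 0.0622). Gm20554 had 3.51, 2.15 and 2.61 FPKM there (0.65 ± 0.21, limma adjusted p = 0.178). For both RNAs, every double and every b-catenin-OE sample lay above every Control sample. Irx2 itself overlapped between the double group and Control.

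The Dlx genes, distal-less homologues that lie in pairs and act in the inner ear, the face and bone, did not move as 1 family. Dlx5 (chromosome 6, 6877801 to 6882068), needed for the vestibular part of the ear and also active in bone-forming cells, had 4.36, 4.21 and 3.95 FPKM in the double group, 5.23, 3.13 and 3.37 FPKM in b-catenin-OE, 5.44, 7.93 and 5.93 FPKM in Notch1-KO and 19.4, 6.85 and 7.32 FPKM in Control. All double and b-catenin-OE samples lay below all Control samples, and Control sample 1 stood far above the rest. The difference in the double group passed (-1.16 ± 0.33, limma adjusted p = 0.0398) and that in b-catenin-OE did not (-1.28 ± 0.33, limma adjusted p = 0.0775). In samples 1 the double group differed from Control by -2.04 and in samples 2 and 3 by -0.73.

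Without Control sample 1 the Dlx5 difference was -0.70 (adjusted p = 0.0539). The call ended also without any 1 double sample (-1.19, -1.17 and -1.13 without samples 1, 2 and 3) and, at an unchanged difference of -1.16, without b-catenin-OE sample 2 or 3 or Notch1-KO sample 2 or 3. In b-catenin-OE the difference passed without its sample 1 (-1.48) or without Control sample 1 (-0.81). Dlx6, the partner of Dlx5, had 0.0384, 0.144 and 0.210 FPKM in the double group, 0.213, 0.128 and 0.141 FPKM in b-catenin-OE, 0.264, 0.375 and 0.440 FPKM in Notch1-KO and 1.38, 0.284 and 0.562 FPKM in Control. It too was lower in all double and b-catenin-OE samples than in Control and highest in Control sample 1, and it did not pass the filter for testing.

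Bone markers were high, as Dlx5 was, in Control sample 1. The 10 genes of the osteoblast list, all tested, summed to 160, 270 and 276 FPKM in the double group, 268, 168 and 159 FPKM in b-catenin-OE, 91.6, 212 and 214 FPKM in Notch1-KO and 789, 156 and 154 FPKM in Control. Bglap, the gene of osteocalcin, had 68.2 FPKM in Control sample 1 and 2.37 and 3.09 FPKM in Control samples 2 and 3, and was between 0 and 2.19 FPKM in the 9 other samples. Of all rows tested 6.64% fell in the double group against Control. Of the list 4 genes fell there (Col1a1, Bglap2, Bglap and Ibsp), and 6 did not pass. Among these 6, Dmp1 had 12.9, 44.6 and 43.7 FPKM in the double group and 20.9, 13.6 and 12.1 FPKM in Control (limma adjusted p = 0.215), and Spp1 had 122, 165 and 171 FPKM in the double group and 125, 31.7 and 30.3 FPKM in Control (limma adjusted p = 0.146). Other marker lists were high in Control sample 1 too. The Schwann cell list summed to 2925 FPKM there and to 536 and 564 FPKM in Control samples 2 and 3, the macrophage list to 219 FPKM against 76.0 and 78.0 FPKM, and the spiral ganglion neuron list to 556 FPKM against 320 and 319 FPKM. The part of bone cells or of these other cells in the Dlx5 and Dlx6 levels was not tested.

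Dlx3, known from skin, tooth and placenta (chromosome 11, 95120117 to 95125291), went the other way in the double group. It had 1.49, 2.24 and 2.27 FPKM in the double group, 0.575, 0.695 and 0.891 FPKM in b-catenin-OE, 0.894, 0.604 and 1.08 FPKM in Notch1-KO and 1.21, 1.01 and 1.17 FPKM in Control. The double samples lay above all others and the b-catenin-OE samples below all Control samples. The double group was higher than b-catenin-OE by 1.03 ± 0.19 (limma adjusted p = 0.0178) and than Notch1-KO by 0.88 ± 0.19 (limma adjusted p = 0.0132). Against Control the difference was 0.60 ± 0.19 in the double group (limma adjusted p = 0.0629) and -0.42 ± 0.19 in b-catenin-OE (limma adjusted p = 0.352).

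The Dlx3 call over b-catenin-OE ended without double sample 2 (0.95), double sample 3 (0.94) or b-catenin-OE sample 2 (1.02). The call over Notch1-KO ended without double sample 2 (0.80), double sample 3 (0.80) or Notch1-KO sample 2 (0.73). Against Control the double group passed without its own sample 1 (0.76) or without b-catenin-OE sample 1 (0.60). Dlx4, the neighbour of Dlx3, was listed at 0 in all double samples and had at most 0.172 FPKM elsewhere.

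Dlx1 and Dlx2, the pair known from forebrain interneurons, stayed low. Dlx1 had 0.231, 0.652 and 0.634 FPKM in the double group, 0.334, 0.602 and 0.542 FPKM in b-catenin-OE, 0.204, 0.344 and 0.24 FPKM in Notch1-KO and 0.227, 0.0855 and 0.220 FPKM in Control. Its differences from Control were 0.55 ± 0.21 in the double group (limma adjusted p = 0.124) and 0.55 ± 0.21 in b-catenin-OE (limma adjusted p = 0.262), and neither passed. Without double sample 1 the difference in the double group was 0.76 and passed (adjusted p = 0.0329). Dlx2 had 1.07, 0.771 and 0.578 FPKM in the double group and 0.948, 0.340 and 0.217 FPKM in Control, with overlap, and its difference of 0.43 ± 0.25 (limma adjusted p = 0.298) passed without Control sample 1 (0.73).

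**Figure D4:**
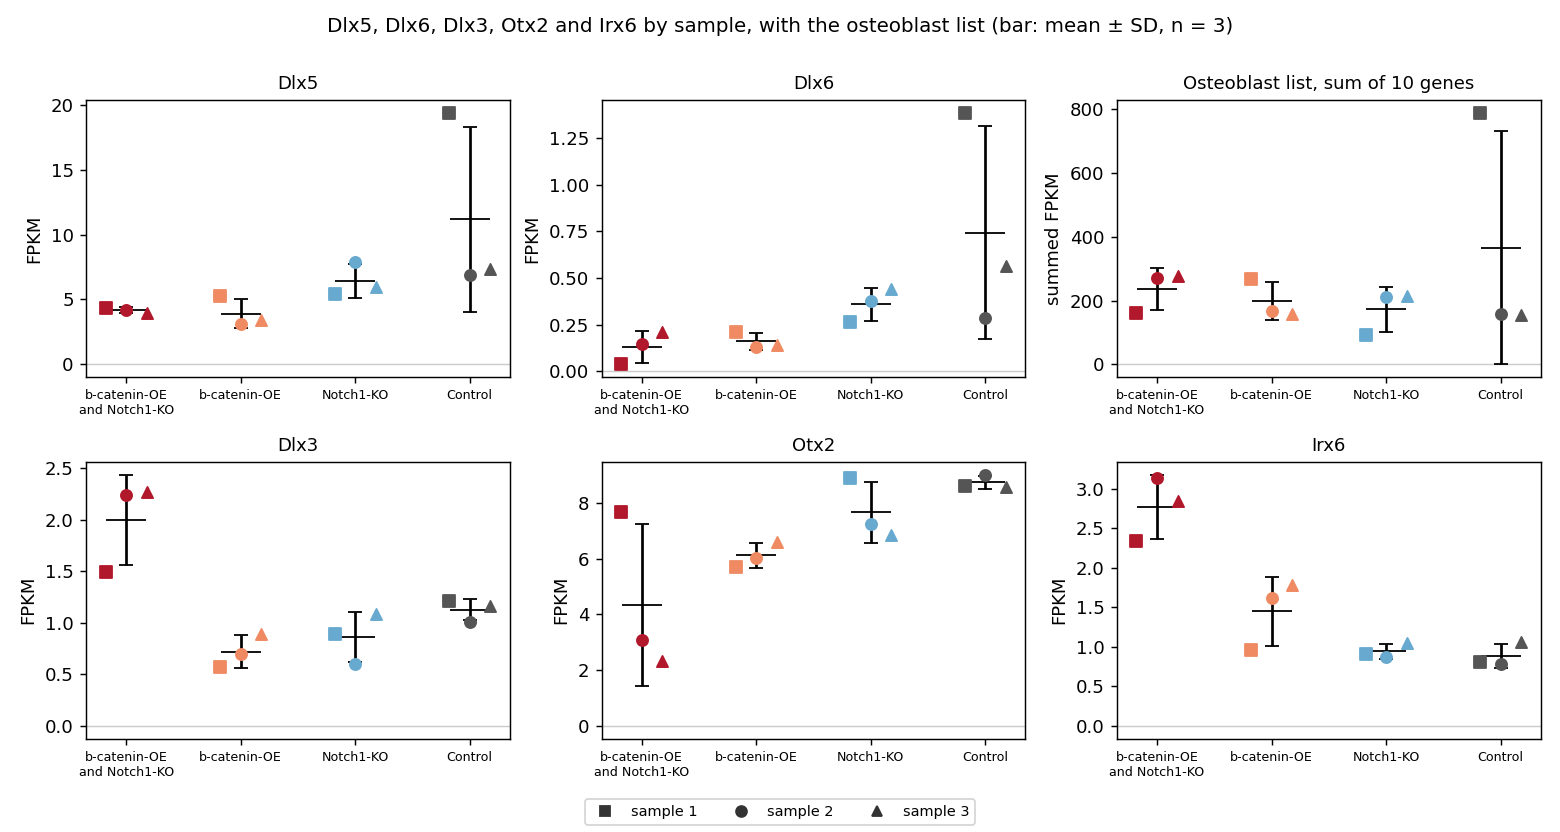
FPKM of Dlx5, Dlx6, Dlx3, Otx2 and Irx6 and the summed FPKM of 10 osteoblast marker genes in every sample, by group, with the mean and SD of 3 samples. Control sample 1 is the highest point in the panels of Dlx5, Dlx6 and the osteoblast list, and double sample 1 lies apart from samples 2 and 3 in that of Otx2.

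Otx2, which in the inner ear marks the non-sensory roof of the cochlear duct (chromosome 14, 48657677 to 48667644), fell in the double group. It had 7.66, 3.06 and 2.31 FPKM in the double group, 5.70, 6.02 and 6.61 FPKM in b-catenin-OE, 8.90, 7.25 and 6.84 FPKM in Notch1-KO and 8.60, 9.01 and 8.58 FPKM in Control. Each double and b-catenin-OE sample lay below each Control sample, and double sample 1 lay nearest to Control. The difference in the double group was -1.09 ± 0.30 (limma adjusted p = 0.0356), with -0.16 in samples 1 and -1.55 in samples 2 and 3.

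The Otx2 call ended without double sample 2 (-0.95), without double sample 3 (-0.78) and without each Control sample (-1.10, -1.07 and -1.10 without samples 1, 2 and 3). It ended also, at an unchanged -1.09, without b-catenin-OE sample 2 or 3 or Notch1-KO sample 2 or 3. Without double sample 1, Otx2 was also lower than in b-catenin-OE (-1.06) and in Notch1-KO (-1.36), which did not pass with it. In b-catenin-OE against Control the difference was -0.48 ± 0.30 (limma adjusted p = 0.556). Otx1, needed in the mouse for the lateral semicircular canal, had 2.71, 0.507 and 0.589 FPKM in the double group, 2.58, 1.71 and 1.39 FPKM in b-catenin-OE, 2.26, 1.91 and 1.8 FPKM in Notch1-KO and 1.75, 2.22 and 2.01 FPKM in Control. Double samples 2 and 3 were the lowest of all 12 and double sample 1 the highest, and the difference of -0.71 ± 0.37 did not pass (limma adjusted p = 0.251). Without double sample 1 it was -1.25 and passed (adjusted p = 0.00450).

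Emx2, which sets the orientation of hair bundles in vestibular organs, was present throughout. It averaged 10.5 ± 1.87 FPKM in the double group, 12.8 ± 3.25 FPKM in b-catenin-OE, 15.0 ± 1.40 FPKM in Notch1-KO and 14.9 ± 4.85 FPKM in Control (SD, n = 3 each). Every double sample lay below every Notch1-KO sample (12.7, 9.37 and 9.47 FPKM, against 14.3, 14.1 and 16.6 FPKM), and both overlapped Control. The difference in the double group was -0.44 ± 0.24 (limma adjusted p = 0.284) against Control and -0.51 ± 0.24 (limma adjusted p = 0.250) against Notch1-KO. Emx1 reached at most 0.411 FPKM. The non-coding genes Emx2os and Otx2os1 were the 2 tested of the 12 genes in the table from a list of non-coding neighbours, which did not hold the RNAs named above at Evx1, Irx2, Irx5 and Msx1. Neither passed in any group against Control by limma or had an unadjusted p below 0.05.

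Gbx2, which patterns the dorsal side of the early ear, stayed below the switched-on level. It had 0.186, 0.434 and 0.465 FPKM in the double group, 0.0228, 0.371 and 0.150 FPKM in b-catenin-OE, 0 in all 3 Notch1-KO samples and 0.0710, 0 and 0.0198 FPKM in Control. Every double sample lay above every Control sample, and the gene did not pass the filter for testing. Gbx1 reached at most 0.0703 FPKM.

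The interaction asks whether the double group departs from the sum of the 2 single changes. In none of the 17 tested genes did it pass by limma, where 0.0206% of all rows did. An unadjusted limma p below 0.05 was found for 6 of the 17 and for 1226 of all 14581 rows tested. Among those of large size were Tlx2 (1.37 ± 0.30, limma adjusted p = 0.136), Dlx3 (1.30 ± 0.27, limma adjusted p = 0.116) and Evx1 (1.30 ± 0.37, limma adjusted p = 0.254). Tlx2 and Evx1 were at or near 0 in both Notch1-KO and Control, where a fall could not be read. Their interactions therefore nearly repeat the differences of the double group from b-catenin-OE (1.38 and 1.28). With a batch term for samples 1 the interaction passed for Tlx2 (adjusted p = 0.0407) and Dlx3 (adjusted p = 0.0435) at the same differences, and for Evx1 it did not (adjusted p = 0.0931). With samples 2 and 3 only it passed for Tlx2 (1.43, adjusted p = 0.00300), Dlx3 (1.36, adjusted p = 0.00814) and Evx1 (1.03, adjusted p = 0.0156). In that setting the interaction passed in 2810 of all 14581 rows, and with the batch term in 177, against 3 in the main model. Passing there is therefore not particular to these genes. The higher level in the double group than in b-catenin-OE passed for Evx1, Tlx2 and Dlx3 in the main model.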

How the data were processed

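The authors deposited 1 table of FPKM values for 12 samples, with 23598 rows and the authors' own p-values against Control. Named in the submitters' processing notes, without order, are Cufflinks 2.2.1 and Cuffdiff, TopHat2 2.0.10 with Bowtie2 2.2.1, Trimmomatic 0.23, CASAVA 1.8 and the mouse build mm10. For annotation, strand setting and further scaling, nothing is given in the sources used here. Deposited p-values are printed only where named as such, and the test behind them is not stated. Loci are those listed with the values, given 1-based, and some of them span more than 1 gene.

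Sample titles gave the groups and numbers. From FPKM, limma 3.58.1 in R 4.3.3 was run on log2(FPKM + 0.5), tested on simulated data, over 14581 rows of at least 0.5 FPKM in at least 3 samples. The model held the 4 group means of all 12 samples with empirical Bayes spread (trended). Tests are two-sided, with p-values adjusted by Benjamini-Hochberg over all rows within each of 6 comparisons, with a threshold of 0.05, and ± beside a log2 difference is its standard error. FPKM allows no count test.

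Depth is not in the table. Low values of 2280 genes with 1 transcript lay on whole-fragment steps in samples 2 and 3, where 75.7% to 79.9% of values were within 0.1 of a whole number (28.8% to 38.9% in samples 1), giving a depth of 18.3 to 26.8 (in units of 1000000 fragments) in the absence of further scaling.

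Genes named are those called in any comparison, switched on or off, of highest Control level in a family, or flagged, with Tlx2 and Evx1. Other genes with values (Dlx1, Dlx2, Dlx4, Dlx6, Gbx2, Msx1, Msx3, Irx2, Irx4, Hoxa2 and RNAs at the same loci) were named after their values were seen. Results of some genes that these rules choose are not reported here. The members and all lists were chosen with earlier results of these data known.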

Additional observations from a re-analysis of the deposited data

Results flagged for a closer look

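Dlx3 was flagged because the effect of b-catenin-OE on it differed between libraries with and without the Notch1-KO change. In the presence of the Notch1-KO change Dlx3 was higher with b-catenin-OE (0.88 ± 0.19 on the log2(FPKM + 0.5) scale), and without that change it was lower with b-catenin-OE (-0.42 ± 0.19). The difference between these effects was 1.30 ± 0.27, with an unadjusted limma p of 0.000499 and a Benjamini-Hochberg adjusted limma p of 0.116 over all rows, so it failed the correction. The flag was set by the order of samples: all 3 samples of the double group lay above all Notch1-KO samples, and all 3 b-catenin-OE samples below all Control samples. That order is the ground of the flag and not a further result. Its share over all rows was not counted.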

How the results depend on the processing

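Evx1 and Tlx2 in the double group against Control were called under every alternative in which they were tested (24 and 23 of them), with log2 differences of 1.52 to 4.21 and 1.34 to 4.01. Both had passed the filter only through libraries with b-catenin-OE in their label, and leaving out 1 replicate kept the same rows. Most of these calls are therefore not independent of that selection. Both genes were called without a filter too. The 1 FPKM filter left Tlx2 untested. Leaving out 1 replicate moved the called homeobox genes to 4 to 8 (from 6) in the double group against Control, 0 to 4 (from 0) in b-catenin-OE against Control, 2 to 5 (from 4) in the double group against b-catenin-OE, 5 to 8 (from 6) against Notch1-KO and 0 to 1 (from 0) in the interaction. Same-numbered samples correlated at 0.0635 to 0.470 after removal of group means. Only double sample 2 with b-catenin-OE sample 2 lay below 0.1, and the numbers were not taken as pairs. Samples 1 correlated with each other at 0.209 to 0.470. With samples 2 and 3 of other groups they correlated at -0.423 to -0.0796. The main model has no term for this shared shift, which stays in its spread. With the number as a replicate block, 10 passed in the double group and 1 in b-catenin-OE against Control, and 1 in the interaction. Of all 14581 rows, 2934, 635 and 53 passed there. With a batch term for samples 1 the counts were 10, 3 and 3, and 3569, 943 and 177 of all rows. With samples 2 and 3 only they were 16 and 10 against Control, 8 against b-catenin-OE, 14 against Notch1-KO and 7 in the interaction. In that setting 6134, 5685, 4281, 6189 and 2810 of all rows passed, in the same order. With samples 2 and 3 averaged the counts were 3 in the double group against Control, 0 against b-catenin-OE and 3 against Notch1-KO (259, 0 and 175 of all rows). These counts moved with those over all rows and are not read as results about the family. A model of the 2 groups alone gave 1 in the double group against b-catenin-OE, and a pseudocount of 0.1 gave 2 in b-catenin-OE against Control. Notch1-KO against Control stayed at 0 throughout. Genes switched on numbered 8 in the double group and 5 in b-catenin-OE with samples 2 and 3 only, an alternative chosen after seeing the data, and 3 in b-catenin-OE when asked of 2 of 3 samples. Leaving out 1 replicate gave 4 to 6 and 0 to 3 switched on, and 0 to 1 switched off in each group. The sign of Msx2 in b-catenin-OE against Control (0.09, not called) turned to -0.011 with samples 2 and 3 averaged, and ran between -0.11 and 0.25 on leaving out 1 replicate, below 0 without b-catenin-OE replicate 3. The cause of these moves was not tested. Silent genes numbered 49 below 0.5 FPKM. Depth of samples 1 is unknown, so levels near 0 were not readable there in fragments.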
